A study of Mus musculus with 13 samples.

Results

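The genes described here were HSF1, the main transcription factor of the heat shock response, and 9 chaperone genes that it can induce. They were the rows of the count table with the symbols Hsf1, Hspa1a, Hspa1b, Hspa8, Hsph1, Dnajb1, Bag3, Hspb1, Hspb8 and Cryab, 10 of 24421 genes, and all 10 passed the filter on low counts in every fit. The symbols were chosen by name, with the differences between these groups of tumors and glands already known from earlier results of the same libraries, so the values below describe these samples.

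In an unstressed cell HSF1 is held inactive by chaperones, among them HSP90 and HSP70. When unfolded proteins occupy those chaperones, or when a drug blocks HSP90, HSF1 forms trimers, binds short repeated elements in promoters and drives transcription of chaperone genes. The induced proteins act in 2 layers. Small heat shock proteins hold unfolding proteins without using ATP, and HSP70 then refolds them in ATP-driven cycles with a J-domain protein that delivers the client and an exchange factor that releases it.

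RNA was sequenced from 13 samples of female MMTV-HER2/Neu mice on the FVB/N background. All of these mice, those giving glands included, carried rat HER2/Neu cDNA driven in breast epithelium by the promoter of a mouse mammary tumor virus, although the genotype field of the labels reads wild type. The 11 tumors arose spontaneously and were sampled individually, and the 2 cancer-free mammary glands came from untreated mice. Primary untreated tumors (n = 3) grew in mice on plain water. Primary STV tumors (n = 3) grew in mice that drank stavudine (STV), a nucleoside inhibitor of reverse transcriptase, at 1 mg/mL. Recurrent DMAG tumors (n = 3) first disappeared and then grew back under the HSP90 inhibitor 17-DMAG, injected intraperitoneally at 20 mg/kg 3 times per week. Recurrent DMAG+STV tumors (n = 2) grew back likewise in mice that also drank stavudine. According to the methods of the study, 17-DMAG injections went on until the regrown tumors reached their end-point size. The age of each mouse and the time between the last injection and the collection of a tumor were not given in the sources used here. Stavudine was started either in young mice or, together with 17-DMAG, once primary tumors had appeared. The paper describes the primary STV tumors as having developed in stavudine-treated mice, which goes with the early start. The labels do not say which start the recurrent DMAG+STV mice had, so comparisons with that group may mix starts.

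Library totals ran from 39921388 to 56887708 counts, and the 10 genes had between 32 and 41031 counts in any library. Levels are given as CPM, counts scaled to a common library size on the library total times its TMM factor, which was 0.493 in gland 2 and 0.999 to 1.12 elsewhere. Of the tissue markers, 8 luminal epithelial genes summed to 1582 to 3159 CPM in the tumors, so the labelled tissue was present in each. The 15 skeletal muscle genes summed to 9.19 to 44.3 CPM in 7 tumors and to 249.2 CPM in primary STV tumor 2, but reached 625 CPM in recurrent DMAG tumor 3, 1404 CPM in primary untreated tumor 1 and 2272 CPM in recurrent DMAG+STV tumor 2. The glands differed from each other as well, with 24.5 and 2413 CPM of muscle genes and 28060 and 764800 CPM of 8 milk protein genes. They also differed in makeup from the primary untreated tumors. In the glands 10 basal and myoepithelial genes summed to 456 and 1218 CPM, against 67.5 to 122 CPM in those tumors. For 10 mesenchymal genes the sums were 2847 and 2463 against 472 to 1032 CPM, and for 10 adipocyte genes 1070 and 2667 against 39.7 to 133 CPM. The part of this makeup in differences from the glands was not tested. In whole tissue, fewer cells of a type and less RNA per cell cannot be told apart. The replicates are separate samples per the labels, and p-values measure only the spread between these samples.

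The promoters of 4 of the genes are shown first, because HSF1 acts through elements in them. Windows from 250 bases before to 50 bases after the annotated start were taken from RefSeq (GRCm38.p6), which gave windows for 7 of the 10 genes, with no window for Hsf1, Hspa8 or Cryab. Each is printed 5′ to 3′ on the strand of its gene, and capitals mark matches to the heat shock element described next. Hspa1a (chr17:34972107-34972406, minus strand) and Hspa1b (chr17:34959189-34959488, minus strand) are the stress-induced HSP70 pair. Hspb1 (chr5:135887669-135887968, plus strand) is the small heat shock gene for which the recurrent DMAG+STV tumors stood above every other library. Hsph1 (chr5:149636266-149636565, minus strand) had the longest element.
Hspa1a: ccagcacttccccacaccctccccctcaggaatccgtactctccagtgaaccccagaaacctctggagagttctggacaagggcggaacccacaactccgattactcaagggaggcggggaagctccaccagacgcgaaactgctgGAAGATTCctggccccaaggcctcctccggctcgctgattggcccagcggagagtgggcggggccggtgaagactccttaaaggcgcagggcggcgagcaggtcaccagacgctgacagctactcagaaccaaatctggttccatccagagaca
Hspa1b: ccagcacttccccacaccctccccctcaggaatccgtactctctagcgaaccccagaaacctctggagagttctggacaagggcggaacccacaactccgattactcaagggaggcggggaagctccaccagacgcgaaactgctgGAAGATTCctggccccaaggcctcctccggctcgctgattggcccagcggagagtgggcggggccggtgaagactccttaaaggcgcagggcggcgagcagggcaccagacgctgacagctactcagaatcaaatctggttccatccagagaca
Hspb1: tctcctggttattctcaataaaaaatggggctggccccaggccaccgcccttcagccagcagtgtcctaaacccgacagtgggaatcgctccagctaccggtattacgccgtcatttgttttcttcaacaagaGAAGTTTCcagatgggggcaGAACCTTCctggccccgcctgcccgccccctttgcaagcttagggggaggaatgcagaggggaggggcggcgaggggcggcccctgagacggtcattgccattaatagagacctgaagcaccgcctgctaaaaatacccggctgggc
Hsph1: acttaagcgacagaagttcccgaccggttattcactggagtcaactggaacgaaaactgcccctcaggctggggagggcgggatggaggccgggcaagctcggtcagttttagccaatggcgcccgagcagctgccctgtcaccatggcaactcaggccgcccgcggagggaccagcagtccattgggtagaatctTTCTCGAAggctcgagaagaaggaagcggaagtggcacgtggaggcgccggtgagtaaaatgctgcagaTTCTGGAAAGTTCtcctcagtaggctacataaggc

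The element searched was 2 joined units of alternating orientation, GAANNTTC or TTCNNGAA, each of which reads the same on both strands, and 3 joined units, GAANNTTCNNGAA or TTCNNGAANNTTC, which are each other on the opposite strand. At least 1 match to 2 units was present in the windows of 6 of the 7 genes, against 16.973% of all 27025 genes with at least 1 window of the same length. Dnajb1 had none. Hspa1a and Hspa1b carried the match at the same place, at bases -104 to -97 from the start, in windows identical at 296 of 300 bases (98.67%). Hspb1 carried 2 matches, at bases -117 to -110 and -97 to -90. Hsph1 had the only match to 3 units, from base 15 to base 27 counted from a first transcribed base numbered 0, and this contained 2 overlapping matches to 2 units. It also had a separate match to 2 units beginning at base -54. Such a match to 3 units was present in 0.662% of those genes. In Bag3 and Hspb8 the match lay at or after the start, beginning at bases 42 and 2. A match is a description of letters and not evidence that HSF1 was bound there in these tumors.

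**Figure D1:**
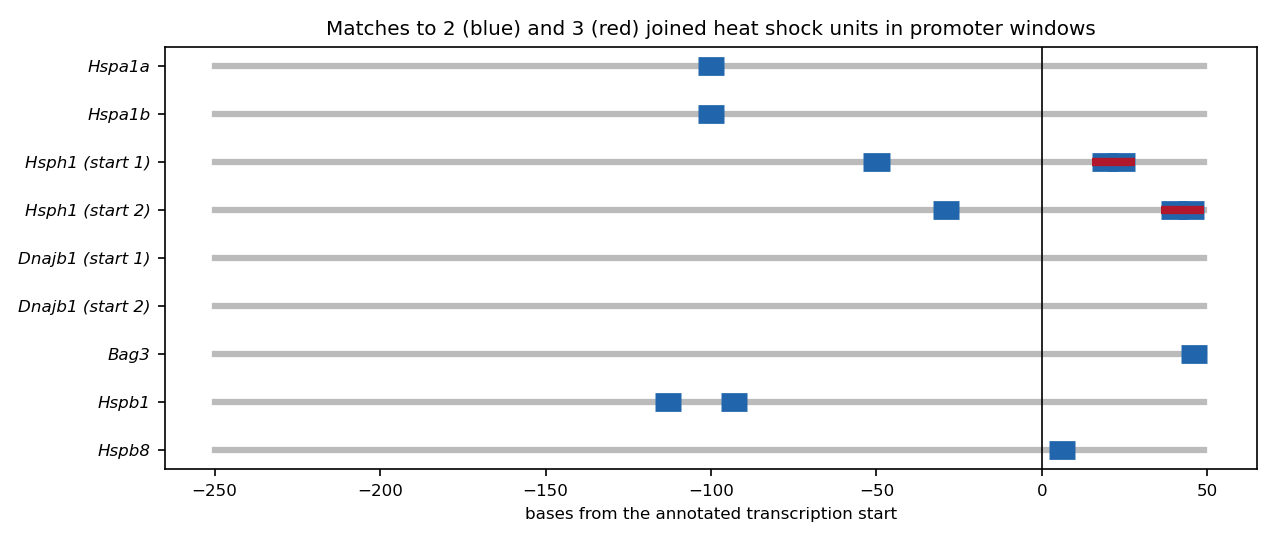
Positions of heat shock element matches in promoter windows of 7 genes, in bases from the annotated start (0), with blue bars for 2 joined units and red bars for 3. Hspa1a and Hspa1b share 1 position, Hspb1 has 2 matches before the start, and only Hsph1, drawn for both of its annotated starts, has a match to 3 units.

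Hsf1 itself (chr15:76477422-76501913, plus strand, GENCODE annotation of GRCm38, as for all gene positions here) spanned a narrow range. Its levels were 29.6 and 36.0 CPM in the glands, 23.8, 35.3 and 24.5 CPM in primary untreated tumors and 28.3, 21.6 and 21.4 CPM in primary STV tumors. In recurrent tumors they were 32.1, 23.1 and 24.8 CPM after DMAG and 25.1 and 33.1 CPM after DMAG+STV. The 4 tumor groups overlapped each other, both glands were above all 3 primary STV tumors, and the 11 tumors spanned a 1.65-fold range. Recurrent minus primary tumors, averaged over both water arms, gave a log2 difference of 0.11 with a 95% interval of -0.25 to 0.47. Hsf2, a second heat shock factor, was at 10.1 to 15.5 CPM in the tumors and was as even.

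The stress-induced HSP70 pair was lower in the glands than in each of the 11 tumors. Hspa1a (chr17:34969190-34972156, minus strand) and Hspa1b (chr17:34956436-34959238, minus strand) are intronless neighbors that encode almost the same protein. Exactly shared sequence made up 58.81% of the 50-base windows of the Hspa1a transcript and 62.31% of those of Hspa1b, so reads from one can be counted for the other or lost, and the handling of reads with several matches was not given in the sources used here. The Hspa1a gene also overlaps Gm20481, annotated on the opposite strand. Their ratio, Hspa1a over Hspa1b, stayed between 0.370 and 0.519 in all 13 libraries.

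Hspa1b stood at 16.7 and 11.3 CPM in the glands, at 27.8, 26.3 and 19.1 CPM in primary untreated tumors and at 26.3, 19.8 and 31.5 CPM in primary STV tumors. Recurrent DMAG tumors had 44.7, 29.6 and 26.6 CPM, and recurrent DMAG+STV tumors 41.7 and 22.9 CPM. All 3 primary untreated tumors were above both glands, and the recurrent groups overlapped the primary groups while holding the 2 highest tumors. Hspa1a, the partner gene, was lower in every library, with 7.40 and 5.25 CPM in the glands, 10.5, 13.6 and 8.34 CPM in primary untreated and 10.7, 7.66 and 12.2 CPM in primary STV tumors. It was at 16.5, 12.2 and 12.5 CPM in recurrent DMAG and at 19.7 and 8.58 CPM in recurrent DMAG+STV tumors. In both genes recurrent DMAG+STV tumor 1 was high and tumor 2 low. The sum of the pair was 16.5 to 24.1 CPM in the glands and 27.4 to 61.4 CPM in the tumors.

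Primary untreated tumors exceeded the glands by 0.80 log2 units for Hspa1b (SE 0.34) and by 0.77 for Hspa1a (SE 0.38), with adjusted p of 0.183 and 0.231 by edgeR's quasi-likelihood test over 17135 genes. Averaged recurrence gave 0.39 for Hspa1b (95% interval -0.10 to 0.87) and 0.40 for Hspa1a (-0.14 to 0.94). The intervals include 0 and also a difference of over 0.8 log2 units, so a modest induction could not be told from none in this number of tumors.

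Hspa8 (chr9:40800984-40810087, plus strand), the constitutive HSP70 that makes up most of the cytosolic pool, was the most abundant of the 10 genes. It was at 474 and 504.7 CPM in the glands, at 440.8, 524.1 and 412.9 CPM in primary untreated tumors and at 576, 512.7 and 492.5 CPM in primary STV tumors. Recurrent DMAG tumors had 595.7, 511.4 and 509.3 CPM, and recurrent DMAG+STV tumors had 802.3 and 470.4 CPM. A single library, recurrent DMAG+STV tumor 1, stood above all others. The 4 tumor groups overlapped each other, and all 3 recurrent DMAG tumors were above both glands, though by as little as 509.3 against 504.7 CPM. The small nucleolar RNA genes Snord14c, Snord14d and Snord14e lie within Hspa8, and their reads were not separated here. The averaged recurrence difference was 0.24 log2 units (95% interval -0.08 to 0.57).

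Of the partners of HSP70, Dnajb1 was the most even, with a 1.44-fold range over the tumors against 1.6-fold for Bag3 and 2.26-fold for Hsph1. Dnajb1 (chr8:83608193-83612653, plus strand), the J-domain protein that hands clients to inducible HSP70, had 26.6 and 31.6 CPM in the glands, 27.5, 29.9 and 28.3 CPM in primary untreated and 29.5, 20.7 and 23.1 CPM in primary STV tumors. It had 29.2, 26.2 and 24.8 CPM in recurrent DMAG and 26.8 and 25.1 CPM in recurrent DMAG+STV tumors. This was the most even of the members between recurrent and primary tumors, with a difference of -0.01 log2 units and a 95% interval of -0.25 to 0.23, which leaves out a 1.2-fold increase.

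Hsph1 (chr5:149614287-149636376, minus strand), the HSP110 exchange factor that also keeps clients soluble, had 35.8 and 65.5 CPM in the glands, 36.0, 33.4 and 26.3 CPM in primary untreated and 48.3, 38.6 and 35.0 CPM in primary STV tumors. Recurrent DMAG tumors had 51.7, 24.7 and 36.8 CPM and recurrent DMAG+STV tumors 55.7 and 47.1 CPM. Each recurrent group overlapped the primary group of its own water arm, while both recurrent DMAG+STV tumors were above all 3 primary untreated ones. Bag3 (chr7:128523616-128546981, plus strand), an exchange factor that links HSP70 to small heat shock proteins and to autophagy, had 27.9 and 63.9 CPM in the glands. In primary tumors it had 37.2, 40.7 and 33.5 CPM untreated and 33.8, 29.3 and 33.0 CPM under STV. In recurrent tumors it had 42.4, 33.7 and 31.6 CPM after DMAG and 37.4 and 46.9 CPM after DMAG+STV. Both recurrent DMAG+STV tumors were above all 3 primary STV tumors for Bag3, by 0.40 log2 units (SE 0.17, adjusted p = 0.476). Without the muscle-rich recurrent DMAG+STV tumor 2 this difference was 0.22. The other tumor groups overlapped. For both genes gland 2, the gland with 2413 CPM of muscle genes, was above gland 1, 1.83-fold for Hsph1 and 2.29-fold for Bag3. Without gland 1 the difference of primary untreated tumors from the gland in Bag3 passed the test at -0.75 (adjusted p = 0.0301), and without gland 2 it was 0.51.

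**Figure D2:**
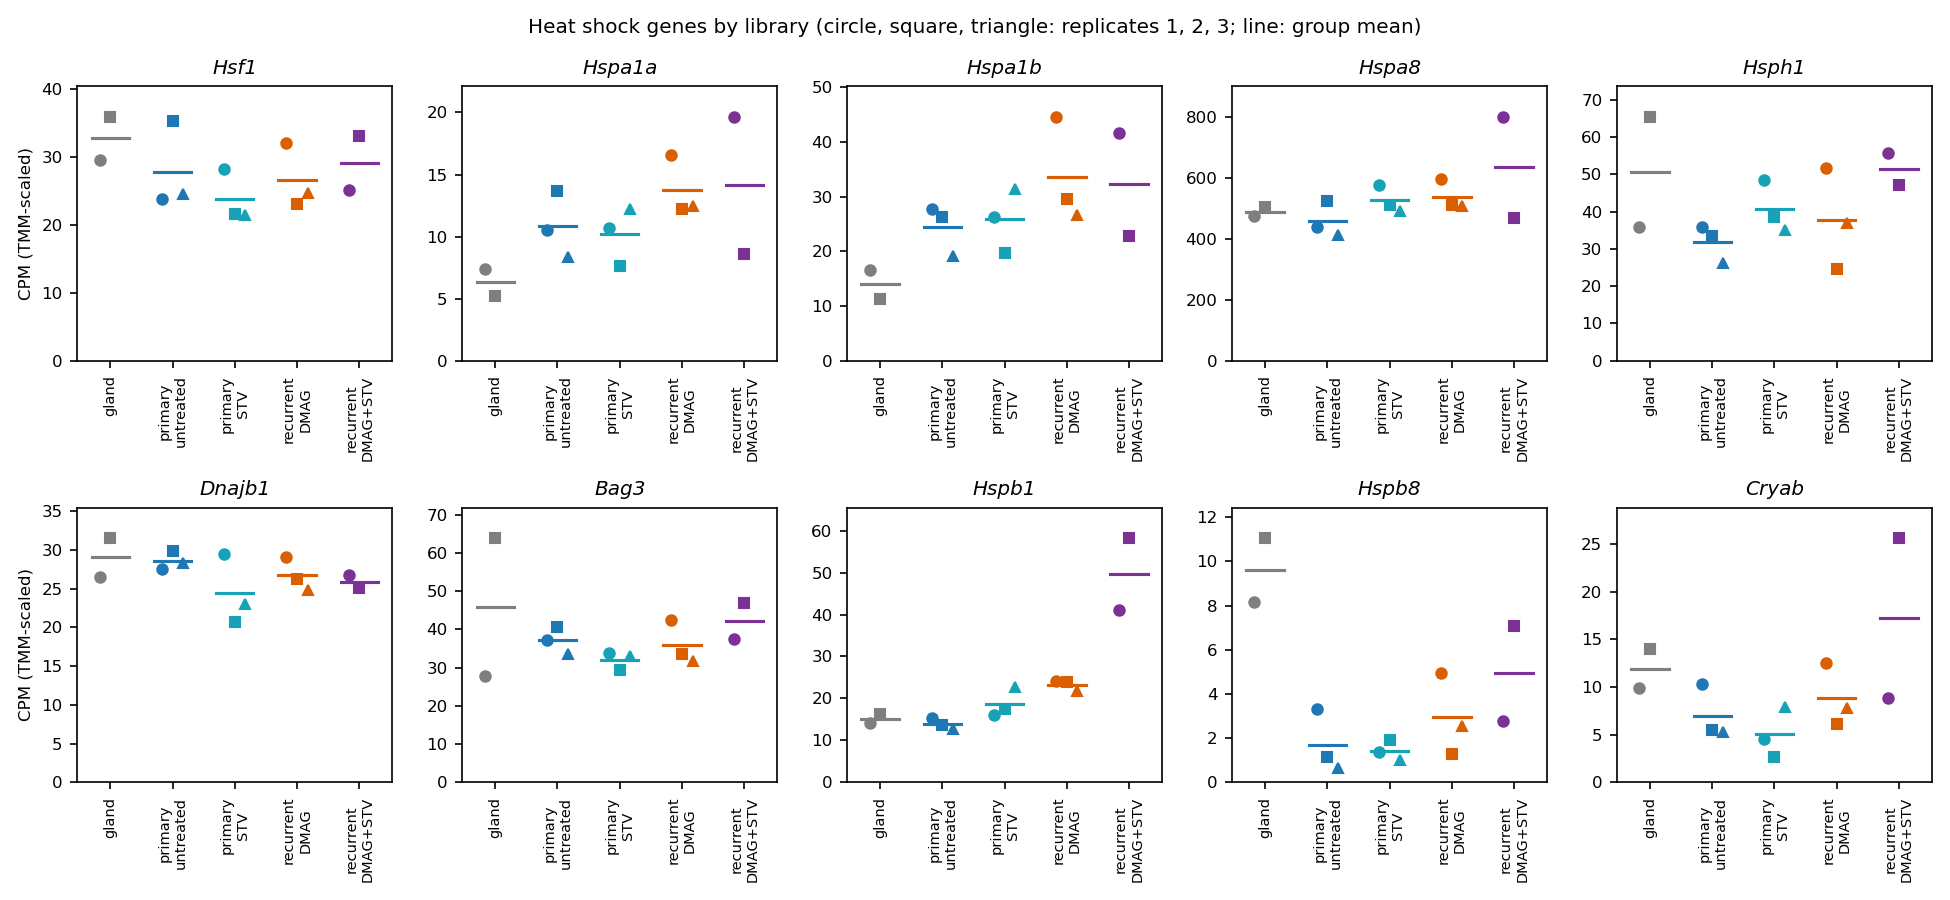
Level of each of the 10 genes in the 13 libraries, in CPM on an axis from 0, with a line at each group mean. Hspb1 is the gene in which both recurrent DMAG+STV tumors, at 41.0 and 58.2 CPM, stand clear of every other library.

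Among the tumor groups the clearest difference was that of Hspb1, a small heat shock gene. Hspb1 (chr5:135887919-135889563, plus strand) encodes HSP27, which holds unfolding proteins in large oligomers and binds actin filaments. It was at 14.1 and 16.2 CPM in the glands, at 15.3, 13.7 and 12.8 CPM in primary untreated tumors and at 16.1, 17.4 and 22.7 CPM in primary STV tumors. Recurrent DMAG tumors had 24.1, 23.8 and 21.8 CPM, and recurrent DMAG+STV tumors had 41.0 and 58.2 CPM. Glands and primary untreated tumors overlapped. All 3 recurrent DMAG tumors were above all 3 primary untreated tumors, and both recurrent DMAG+STV tumors were above every other library. All 3 primary STV tumors were also above all 3 primary untreated ones, and primary STV tumor 3 lay within the range of the recurrent DMAG tumors.

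Without stavudine, recurrent minus primary tumors gave 0.72 log2 units for Hspb1 (SE 0.17, 95% interval 0.34 to 1.11, adjusted p = 0.509). Under stavudine it gave 1.41 (SE 0.19, 0.99 to 1.84, adjusted p = 0.154), a 2.66-fold difference of means from 18.7 to 49.6 CPM. Averaged over both arms the difference was 1.07 (SE 0.13, 0.78 to 1.35), or 2.1-fold, with an adjusted p of 0.17, the smallest of all 16870 genes, where Lurap1l had the same adjusted p. Recurrent DMAG+STV exceeded recurrent DMAG tumors by 1.10 (SE 0.19, adjusted p = 0.166). The difference of the recurrence effect between arms, the interaction, was 0.69 (SE 0.26, adjusted p = 0.586). These comparisons share groups, so their values are not independent of each other.

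None of these edgeR tests passed at an adjusted p of 0.05, but the call depended on the tool. DESeq2 gave Hspb1 adjusted p of 0.0434 without stavudine, 4.78e-07 under stavudine, 4.43e-09 for the average and 0.000241 between the recurrent groups. With edgeR it passed when recurrent DMAG+STV tumor 1 was left out, at 1.63 under stavudine (adjusted p = 0.0203), 1.19 for the average (0.0324) and 1.32 between the recurrent groups (0.0315), the remaining tumor of that group being taken to vary like the other groups. When tumor 2, the one with muscle RNA, was left out instead, the differences were 1.13, 0.94 and 0.82, with adjusted p of 0.626, 0.348 and 1.0.

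**Figure D3:**
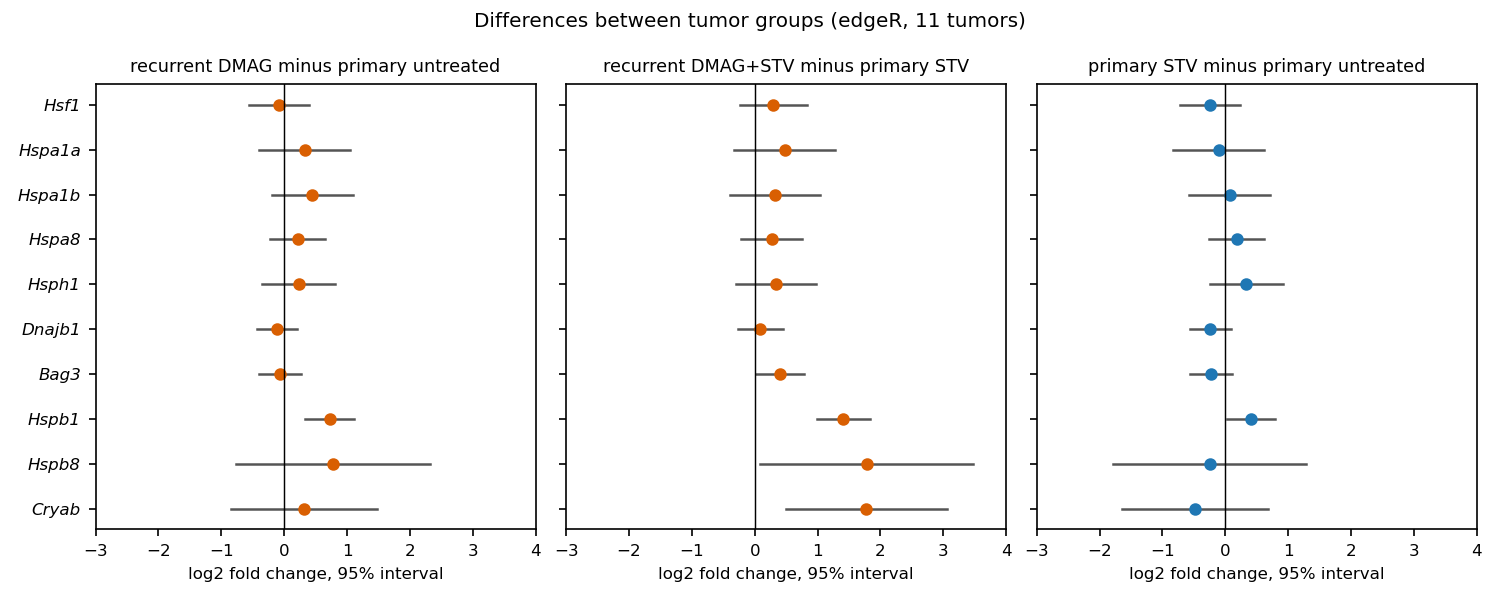
Log2 fold change (point) and 95% interval (line) of the 10 genes in 3 comparisons of tumor groups, fitted with edgeR on 11 tumors. Hspb1 is above 0 in both recurrence panels, at 0.72 and 1.41, and in the primary STV panel, at 0.41. The intervals of Bag3, Hspb8 and Cryab are above 0 only for recurrence under stavudine. Those of Hsf1, the HSP70 genes and Dnajb1 span 0 in all panels.

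Cryab and Hspb8 are the small heat shock genes best known from striated muscle, where they protect the contractile apparatus, Hspb8 together with Bag3. Cryab (chr9:50751325-50756636, plus strand), alpha B-crystallin, was at 9.88 and 14.0 CPM in the glands, 10.3, 5.44 and 5.23 CPM in primary untreated and 4.58, 2.70 and 7.91 CPM in primary STV tumors. Recurrent DMAG tumors had 12.5, 6.08 and 7.79 CPM, and recurrent DMAG+STV tumors had 8.86 and 25.6 CPM. Recurrent DMAG+STV tumor 2 was the highest library by far, and only under stavudine were the recurrent tumors all above the primary ones. The span of Cryab overlaps that of Hspb2 on the opposite strand, and Hspb2 was at 0.0870 to 0.448 CPM in the tumors.

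Hspb8 (chr5:116408491-116422864, minus strand) was the least abundant gene, with 8.18 and 11.1 CPM in the glands, 3.31, 1.14 and 0.642 CPM in primary untreated and 1.38, 1.92 and 1.01 CPM in primary STV tumors. It had 4.96, 1.30 and 2.56 CPM in recurrent DMAG and 2.78 and 7.10 CPM in recurrent DMAG+STV tumors. Both glands were above every tumor. Primary untreated tumors were lower than the glands by a log2 difference of -2.50 (SE 0.73, adjusted p = 0.084 by edgeR and 0.00864 by DESeq2). Under stavudine, recurrent minus primary tumors gave 1.78 for Hspb8 (SE 0.75, adjusted p = 0.481) and 1.78 for Cryab (SE 0.57, adjusted p = 0.399). Without stavudine the values were 0.78 (SE 0.69) and 0.32 (SE 0.52), with overlap in both genes.

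Skeletal muscle RNA was high in some, but not all, of the tumors that were high in Cryab, Hspb8 and the related Hspb6 and Hspb7. The recurrent DMAG+STV tumors had 34.4 and 2272 CPM of the 15 muscle genes, of which none was at 0 counts, and the primary STV tumors 16.2, 249.2 and 22.4 CPM, with 2, 0 and 5 of the genes at 0 counts. Primary untreated tumors had 1404, 14.4 and 44.3 CPM, with 0, 4 and 2 genes at 0 counts, and recurrent DMAG tumors 9.19, 23.5 and 625 CPM, with 2, 7 and 0. The most muscle-rich tumor, recurrent DMAG+STV tumor 2, was the highest in Hspb1, Hspb8, Cryab, Hspb6 (18.4 CPM) and Hspb7 (7.93 CPM). Primary untreated tumor 1, also rich in muscle RNA, was the highest of its group in Hspb8, Cryab, Hspb6 and Hspb7, but for Hspb1 it had 15.3 CPM, close to the 13.7 and 12.8 CPM of the others. The other 2 groups did not follow for Cryab. Primary STV tumor 2 had the most muscle RNA of its group but, at 2.70 CPM, the lowest Cryab of all tumors, although its Hspb8 was the highest of its group. In the recurrent DMAG group tumor 3, with 625 CPM of muscle genes, had 7.79 CPM of Cryab and 2.56 CPM of Hspb8, both below tumor 1, which had the least muscle RNA of all tumors and 12.5 and 4.96 CPM.

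With primary untreated tumor 1, recurrent DMAG tumor 3 and recurrent DMAG+STV tumor 2 all left out, the recurrence difference of Hspb1 was 0.87 without stavudine, 1.13 under it and 1.00 on average. For Cryab under stavudine it was 0.80 in place of 1.78, for Hspb8 0.95 in place of 1.78 and for Bag3 0.22 in place of 0.40. The difference between the recurrent groups became -0.07 for Cryab and -0.18 for Hspb8, and for Hspb1 it was 0.77 in place of 1.10 (adjusted p = 0.999). Summed basal and myoepithelial genes were also higher in some of these libraries. The 10 markers summed to 132 and 387 CPM in recurrent DMAG+STV against 55.0 to 121 CPM in primary STV tumors. In recurrent DMAG they summed to 103 to 327 CPM, against 67.5 to 122 CPM in primary untreated tumors. Under stavudine 8 of 10 had a recurrence difference above 0, and without it 10 of 10. Acta2 made up 148.5 CPM in recurrent DMAG+STV tumor 2. The keratin Krt5 had 0.469 and 1.10 CPM in recurrent DMAG+STV and 2.33, 0.435 and 0 CPM in primary STV tumors. Krt14 had 0.469 and 0.897 against 1.66, 0.131 and 0 CPM. The 10 mesenchymal genes summed to 6008, 416 and 1053 CPM in the recurrent DMAG tumors and 1510 and 2044 CPM in the recurrent DMAG+STV tumors, against 340.3 to 1032 CPM in the primary tumors. The 10 proliferation genes were at 443 and 211 CPM in recurrent DMAG+STV tumors and at 586 to 973 CPM in the other tumors. The 8 leukocyte genes summed to 352.1 to 829.3 CPM in the recurrent and 263.2 to 539.9 CPM in the primary tumors. All 8 had an averaged recurrence difference above 0, with a median of 0.73. The part of basal, mesenchymal, dividing and immune cells in these differences was not tested.

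**Figure D4:**
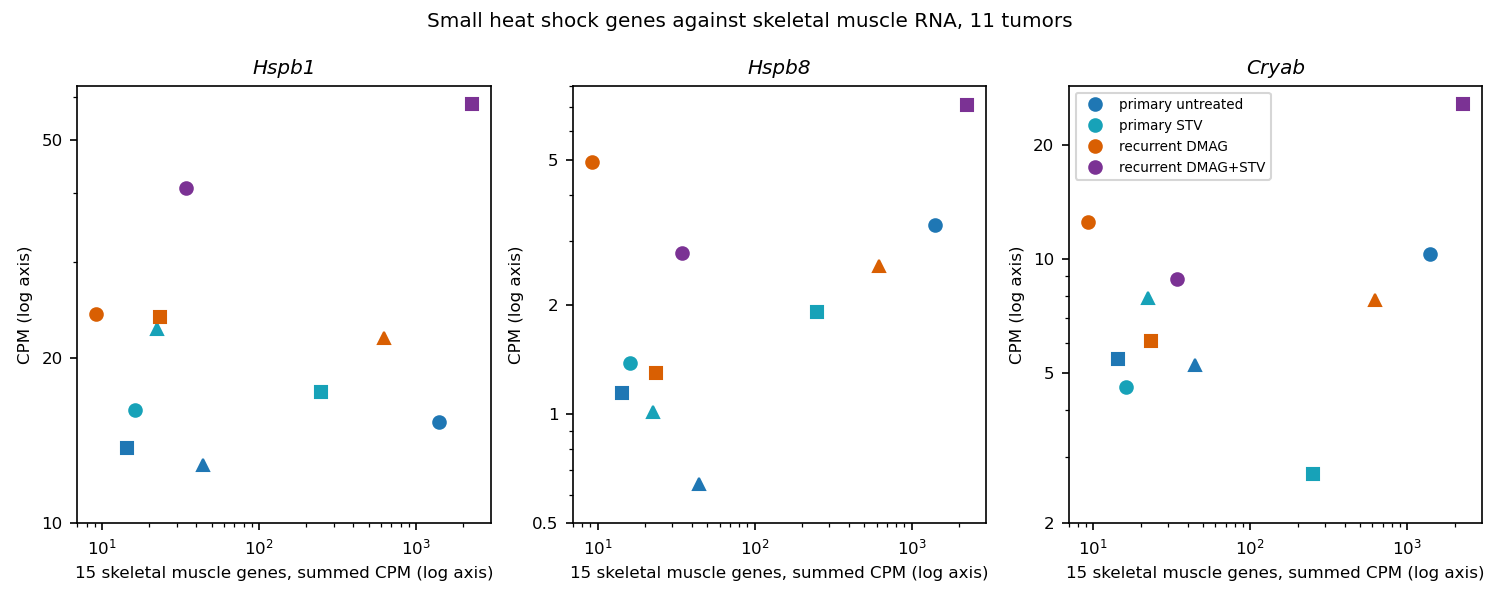
Level of Hspb1, Hspb8 and Cryab in 11 tumors against the summed level of 15 skeletal muscle genes, both in CPM on log axes, with circle, square and triangle for replicates 1, 2 and 3. Recurrent DMAG+STV tumor 2 is at the top right in all 3 panels, while recurrent DMAG+STV tumor 1, with 34.4 CPM of muscle genes, is the second highest for Hspb1, at 41.0 CPM, and the fourth highest for Hspb8 and Cryab.

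Compared per kilobase of exon, Hspa8 was far above the rest, with a median of 213.6 CPM per kb over the 11 tumors, above the next gene in all 11. Hspb1 followed at 21.2 CPM per kb and exceeded Bag3, at 13.2, in 9 of 11 tumors, and Bag3 exceeded Hsf1, at 10.97, in 11 of 11. Hsf1, Hspa1b (9.49), Hsph1 (8.72) and Dnajb1 (8.35 CPM per kb) formed a close group in which each exceeded the next in only 7 or 8 tumors. Dnajb1 was above Cryab, at 6.03, in 9 tumors, and Cryab above Hspa1a, at 4.11, in 8. Hspb8 was the lowest at 1.05 CPM per kb. The levels of Hspa1a and Hspa1b on this scale are lower bounds if reads shared by the pair were dropped.

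Counted over the 10 genes, edgeR called 0 in each of the 7 contrasts, against a background of 2.11% of all genes in primary untreated tumors against glands and 0% in each of the 6 contrasts among tumors. DESeq2 called 1 gene in 5 contrasts, which was Hspb8 against the glands (13.1% of all genes called) and Hspb1 in recurrent DMAG minus primary untreated (0.439%), recurrent DMAG+STV minus primary STV (1.94%), recurrent DMAG+STV minus recurrent DMAG (1.65%) and averaged recurrence (2.41%). It called 0 of the 10 for stavudine in primary tumors (0.107%) and for the interaction (1.13%). At an unadjusted edgeR p under 0.05 there were 2 of 10 genes against the glands (24.5% of all genes), 1 for stavudine in primary tumors (3.76%), 1 for recurrent DMAG minus primary untreated (9.69%), 4 for recurrence under stavudine (10.1%), 1 between recurrent groups (7.84%), 3 for averaged recurrence (13.6%) and 1 for the interaction (7.84%). Only recurrence under stavudine and averaged recurrence held more than 2 of these genes.

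The groups did not overlap for 4 of 10 genes in recurrent DMAG+STV minus primary STV tumors, all higher in recurrence, where 17.4% of all genes were separated as higher and 17.9% as lower. The 4 were Bag3, Hspb1, Hspb8 and Cryab. In the other contrasts among tumors only Hspb1 was separated, higher in primary STV (5% of all genes higher, 5.83% lower), in recurrent DMAG (7.65% and 7.45%) and in recurrent DMAG+STV against recurrent DMAG (10.9% and 10.5%). When all 5 recurrent were set against all 6 primary tumors none was separated (0.652% of all genes higher, 0.688% lower). Against the glands, Hspa1a and Hspa1b were separated as higher in primary untreated tumors (18.8%) and Hspb8 as lower (20.4%).

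The fitted difference was above 0 for 7 of 10 genes in recurrent DMAG minus primary untreated (49.4% of all genes), with a median of 0.27 log2 units against -0.01 for all genes. It was above 0 for 10 of 10 in recurrent DMAG+STV minus primary STV (51.8%), with a median of 0.37 against 0.01. Both counts changed when a single library was left out. Without recurrent DMAG+STV tumor 1 the count under stavudine was 7 of 10, with Hspa1a at -0.26, Hspa1b at -0.19 and Hspa8 at -0.17. Without primary untreated tumor 2 the count in the other arm was 9 of 10. Without recurrent DMAG tumor 1, Hsph1 (-0.046) and Cryab (-0.012) in that arm turned below 0. For stavudine in primary tumors the fitted difference was above 0 for 4 of 10 (44.9%), with a median of -0.16 against -0.03. For primary untreated tumors against glands it was above 0 for 2 of 10 (48.8%), with a median of -0.18 against -0.02. Between the recurrent groups 8 of 10 were above 0 (49.4%) with a median of 0.24, on average 9 of 10 (50.3%) with a median of 0.34, and for the interaction 9 of 10 (52.5%) with a median of 0.29. These counts and medians describe the list, and nothing is called particular to it from them.

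Other chaperones, in lists drawn up with earlier results known, gave 0 edgeR calls in averaged recurrence in all 7 lists. Of 11 other HSP70 family genes 6 had a difference above 0 (median 0.08), of 18 other J-domain genes 8 (median -0.05), of 10 exchange factors and partners 7 (median 0.07) and of 17 HSP90 and chaperonin genes 12 (median 0.12). Of 5 other small heat shock genes tested 4 were above 0 (median 0.58), of 7 HSF family genes and regulators 3 (median -0.03) and of 11 other HSF1-induced genes 9 (median 0.21).

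Of the genes named from these lists, Dnaja1, a cytosolic J-domain protein, had 0.47 (adjusted p = 0.313), Stip1, the adaptor between HSP70 and HSP90, 0.35 (0.33) and Hsp90ab1, the constitutive HSP90, 0.35 (0.287). Hspa5, the HSP70 of the endoplasmic reticulum, had -0.35 (adjusted p = 0.456), Hspa13 -0.54 (0.287), Dnajc3 -0.55 (0.335), Sil1, the exchange factor of Hspa5, -0.47 (0.369) and Hsp90b1, the HSP90 of the same compartment, -0.52 (0.313). None passed the test, and the genes were named for having the 2 smallest p-values of their lists. Hsp90ab1 was at 1131, 1106 and 1039 CPM in primary untreated and 1121, 1018 and 1154 CPM in primary STV tumors. It was at 1407, 1144 and 1213 CPM in recurrent DMAG and 1580 and 1565 CPM in recurrent DMAG+STV tumors. Both recurrent groups were above their own primary group, without stavudine by as little as 1144 against 1131 CPM. Of all genes 7.65% were separated as higher without stavudine and 17.4% under it. Hsp90ab1 was picked by its p-value in these same libraries.

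Among the remaining named genes Hspb7 had 1.24 on average (adjusted p = 0.485), made of -0.59 without and 3.07 under stavudine, and the muscle-rich tumors 1 of primary untreated and 2 of recurrent DMAG+STV held its 2 highest values, 5.30 and 7.93 CPM. Hspb2 had 0.95 (adjusted p = 0.344) at no more than 0.448 CPM in any tumor. Hmox1, heme oxygenase, which oxidative stress also induces, had 1.33 (adjusted p = 0.376) with tumors from 7.03 to 179.7 CPM, and Gadd45b, a stress-induced growth arrest gene, had 0.92 (0.313). Hsf4 had 0.42 (adjusted p = 0.508) and Hsf2bp 1.01 (0.512).

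**Figure D5:**
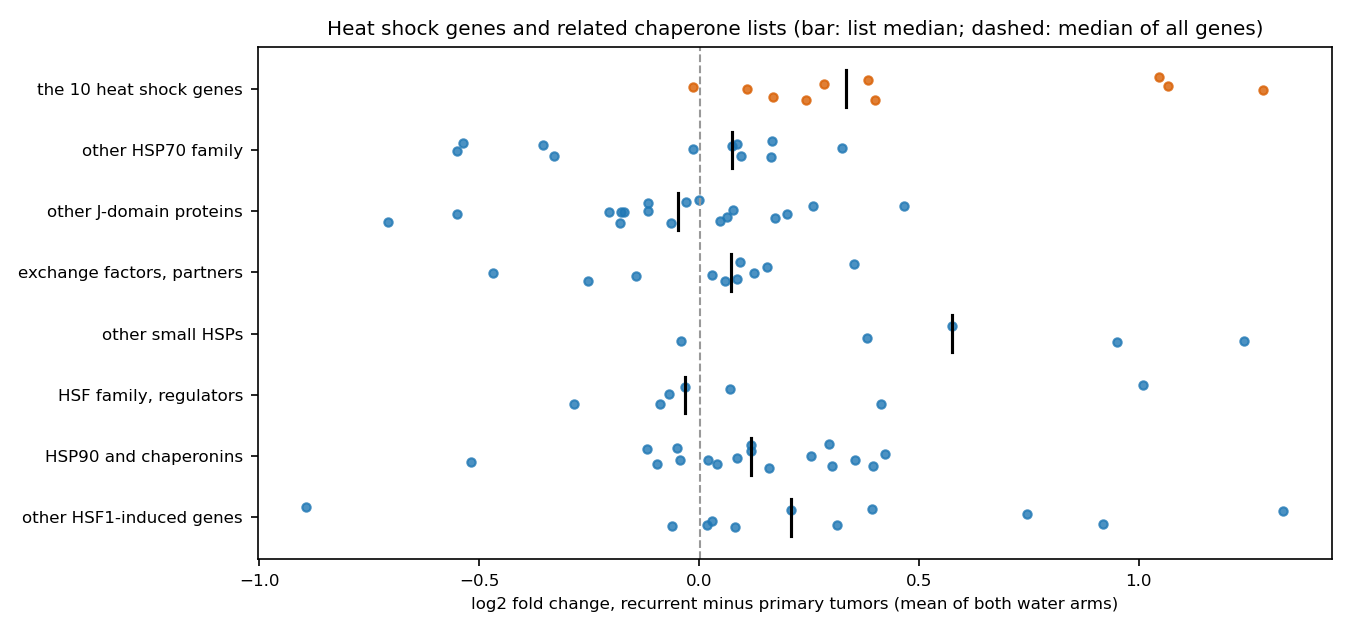
Log2 fold change of recurrent minus primary tumors, averaged over both water arms, for the 10 heat shock genes (orange) and 7 lists of related genes (blue), each point 1 gene, each bar a list median, the dashed line the median of all genes. Hspb1, Cryab and Hspb8 lie above 1, while Dnajb1 lies at -0.01.

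Across the 11 tumors the genes fell into looser and tighter pairs, given as Pearson r of log2 CPM over libraries that share groups. Hspa1a and Hspa1b gave an r of 0.92, and the part of their shared reads in it was not tested. Hspa8 followed Hspa1a at 0.78. Cryab followed Bag3 at 0.80, Hspb8 at 0.74 and Hspb1 at 0.72. Hsf1 followed Bag3 at 0.82 and Dnajb1 at 0.62, and gave 0.445 with Cryab, 0.39 with Hspb8 and 0.386 with Hsph1. With Hspa1a it gave 0.22, with Hspb1 0.20, with Hspa1b 0.16 and with Hspa8 0.145. Dnajb1 against Hspb1 gave -0.24.

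Among 12682 genes whose log2 CPM averaged 1 or more, those outside the set most like Hspb1 across the 11 tumors were Nck2 (r = 0.96), Lurap1l (0.94) and Ezr (0.93). Those most like Cryab were Mylk (0.96), the myosin light chain kinase that is also in the basal and myoepithelial list, Me2 (0.94) and L3mbtl3 (0.94). For Hspa1b they were A630001G21Rik (0.97), Gch1 (0.94) and Lbp (0.92), for Hspa8 Nagpa (0.90), Ccdc129 (0.87) and Plcg2 (0.86), and for Hsf1 Cdk18 (0.95), Ttyh2 (0.93) and Xpot (0.93). Each was picked for its high r among 12682 genes over only 11 tumors. Such picking by itself gives high values, and these were not tested.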

How the data were processed

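RNA was measured in 11 tumors and 2 mammary glands. According to the labels and methods, the authors made libraries from total RNA depleted of ribosomal RNA, aligned reads to mm10 with STAR, and obtained gene counts with featureCounts (Subread 1.6.2). The STAR version, the strand setting and the handling of reads with several matches were not given in the sources used here. The deposited values were raw counts per gene, and no normalized values were used.

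Groups followed the labels. Counts were fitted with edgeR 4.0.16 (R 4.3.3, limma 3.58.1): filterByExpr, TMM factors, robust quasi-likelihood test, two-sided, Benjamini-Hochberg adjustment over all genes tested, called under 0.05. The gland contrast used 13 libraries and 17135 genes, the other 6 contrasts 11 tumors and 16870 genes. Intervals are 95%. Correlations used a prior count of 2. DESeq2 1.42.0 was an alternative, as were its size factors, no filter on low counts, compared groups alone, the replicate number as a block, each library left out, 3 muscle-rich libraries left out, and scaling without milk, muscle and adipocyte genes, the last chosen after seeing the data. The edgeR fit was tested on simulated data, and the DESeq2 fit was not.

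All 10 genes were named. From each chaperone list the 2 genes with the smallest p in averaged recurrence, and for 5 genes the 3 most correlated genes, were named. Members and lists were chosen with earlier results of these data known. RefSeq protein sequences were not used here.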

Additional observations from a re-analysis of the deposited data

How the results depend on the processing

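Of the 10 genes, the number called was 0 in every contrast and became 1 with DESeq2 in 5 contrasts, all but stavudine in primary tumors and the interaction. Leaving out 1 library gave 0 to 1, with 1 for primary untreated minus gland without gland replicate 1 (Bag3), and for recurrent DMAG+STV minus primary STV, recurrent DMAG+STV minus recurrent DMAG and averaged recurrence without recurrent DMAG+STV replicate 1 (Hspb1). Size factors, the filter, the compared groups alone, the replicate block, the 3 muscle libraries and the scaling changed none of these counts. Over all genes edgeR called 361 against the glands and 0 in each contrast among tumors, and DESeq2 called 2335 against the glands and 18 to 406 among tumors.

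Replicate numbers recur across groups. The correlations of same-numbered libraries ran from -0.295 to 0.222, within the -0.366 to 0.369 of differently numbered ones. They do not show a pairing by number and cannot exclude one. With only 2 recurrent DMAG+STV tumors, the values of that group mirror each other. With the replicate number as a block Hspb1 gave 1.07 in averaged recurrence (adjusted p = 0.337), and the sign turned for Dnajb1 (0.0075) in primary untreated minus gland; Hspa1a (-0.040) in recurrent DMAG+STV minus recurrent DMAG; Hspa8 (-0.0077) in the interaction.

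Leaving out the 3 muscle-rich libraries (primary untreated 1, recurrent DMAG 3, recurrent DMAG+STV 2), which leaves 1 recurrent DMAG+STV tumor taken to vary like the others, turned the sign of Dnajb1 (0.021) in primary untreated minus gland; Hspb8 (0.71) in primary STV minus primary untreated; Bag3 (0.054) in recurrent DMAG minus primary untreated; Hsf1 (-0.14), Hspa1b (0.16), Bag3 (-0.025), Hspb8 (-0.18), Cryab (-0.074) in recurrent DMAG+STV minus recurrent DMAG; Hsf1 (-0.010), Dnajb1 (0.035) in averaged recurrence; Hspb8 (-0.88), Cryab (-0.020) in the interaction. Gland 2, with 2413 CPM of muscle genes, was kept. For primary untreated minus gland a muscle-rich library was therefore left out on the tumor side only. The cause was not tested, and none of these differences was called.

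Where leaving out 1 library turned a sign, the log2 differences ranged as follows. For primary untreated minus gland, Hsf1 -0.44 to 0.0098, Hspa8 -0.20 to 0.050, Dnajb1 -0.11 to 0.20, Bag3 -0.75 to 0.51 and Hspb1 -0.20 to 0.073. For primary STV minus primary untreated, Hspa1a -0.26 to 0.12, Hspa1b -0.088 to 0.24 and Hspb8 -0.64 to 0.67. For recurrent DMAG minus primary untreated, Hsf1 -0.21 to 0.14, Hsph1 -0.046 to 0.49, Bag3 -0.18 to 0.019 and Cryab -0.012 to 0.70. For recurrent DMAG+STV minus primary STV, Hspa1a -0.26 to 0.94, Hspa1b -0.19 to 0.68, Hspa8 -0.17 to 0.60 and Dnajb1 -0.030 to 0.25. For recurrent DMAG+STV minus recurrent DMAG, Hsf1 -0.090 to 0.31, Hspa1a -0.69 to 0.51, Hspa1b -0.56 to 0.31, Hspa8 -0.20 to 0.57, Dnajb1 -0.10 to 0.024 and Hspb8 -0.087 to 1.35. For averaged recurrence, Dnajb1 -0.065 to 0.080. For the interaction, Hspa1a -0.61 to 0.59, Hspa1b -0.66 to 0.21, Hspa8 -0.41 to 0.36 and Hsph1 -0.16 to 0.38. Hspb1 kept its sign under every setting in each contrast among tumors.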
